A study of Mus musculus with 12 samples.

Results

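The cytosolic ribosomal protein genes were taken by gene symbol from the deposited table of 56748 genes. A gene was a member when its symbol was Rps or Rpl followed by a number, with at most a paralogue suffix, or was Rplp0, Rplp1, Rplp2 or Rpsa. Pseudogene symbols and the Rps6k kinases were left out. This gave 89 genes, 36 of the small (40S) and 53 of the large (60S) subunit. The annotation lists 83 of them as protein-coding, while Rpl32l, Rpl6l, Rps12l1, Rps3a2, Rps3a3 and Rps4l are listed as processed pseudogenes despite their symbols. Rpl22, which carries the tag used to pull down ribosomes, was described apart from the other 88.

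The data are RNA-seq of retinas from 2-week-old littermate mice with or without Shp2 (Ptpn11), a tyrosine phosphatase, in rods. Het mice were RiboTag;Shp2fl/+;i75-Rod-Cre and served as controls, although their sample titles read wt, and KO mice were RiboTag;Shp2fl/fl;i75-Rod-Cre, with 3 libraries per genotype and fraction. All mice carried Cre driven by the rhodopsin promoter and were homozygous for RiboTag, in which Cre switches the last exon of Rpl22 to an HA-tagged copy, so no group lacked Cre or the tag. Each genotype gave whole-retina RNA (Het retina, KO retina) and RNA recovered with HA antibody from tagged rod polysomes (Rod-TRAP; Het rods, KO rods). The animals were perfused with cycloheximide, which halts elongating ribosomes, and the tissue was flash-frozen.

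Each ribosome holds 1 copy of nearly every ribosomal protein, and the genes behind them are transcribed at high rates in most cells. Many of their mRNAs begin with a terminal oligopyrimidine tract (TOP), a run of C and T bases that starts with the first transcribed base and makes their translation respond to nutrient and growth factor signals through mTOR. Photoreceptors renew their outer segments throughout life and depend on steady protein synthesis. Shp2 acts in growth factor signalling upstream of ERK.

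TOP runs were looked for at the annotated transcript starts in RefSeq (build GRCm38.p6), which held 64 of the 89 genes. A C at the annotated start followed by C or T up to a run of at least 5 bases, read on the transcript's strand alone, was present in 14 of these 64 genes (21.9%) and in 3.01% of 27025 genes in the same table (2.51% of 32851 start windows). An annotated start may lie away from the start used in the retina, so a gene without a run was not shown to lack one. The windows below run from 10 bases before the annotated start over 30 bases, for genes that the results return to, with the run in capitals. The last 3 hold no such run at the annotated start.
Rpl15, chr14:18270967-18270996, minus strand: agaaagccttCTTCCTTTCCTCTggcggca
Rpl28, chr7:4792955-4792984, plus strand: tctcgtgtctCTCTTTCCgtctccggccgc
Rps10, chr17:27635225-27635254, minus strand: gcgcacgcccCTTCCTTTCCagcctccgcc
Rps18, chr17:33955646-33955675, minus strand: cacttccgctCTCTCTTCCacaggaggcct
Rps27, chr3:90213629-90213658, minus strand: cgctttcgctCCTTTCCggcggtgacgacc
Rplp2, chr7:141447641-141447670, plus strand: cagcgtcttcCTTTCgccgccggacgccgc
Rpl18, chr7:45718061-45718090, plus strand: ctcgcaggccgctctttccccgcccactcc
Rpl22l1, chr3:28805498-28805527, plus strand: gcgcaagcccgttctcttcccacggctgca
Rpl22, chr4:152324426-152324455, plus strand: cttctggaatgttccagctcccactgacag

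The longest run, 13 bases, belonged to Rpl15. In Rpl18 and Rpl22l1 a stretch of pyrimidines lay just downstream of a G at the annotated start, so it did not count as a run from the first base.

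The deposited values had been scaled to a common total within each fraction, 14525527 to 14527992 in retina and 16263948 to 16265259 in rods, so the sequencing depth of a library is unknown. Rod markers held 16.1 to 18.5% of the total in the rod libraries and 5.26 to 6.59% in the retina libraries, while Müller glia markers held 0.00761 to 0.0120% and 0.284 to 0.383%. Ganglion cell markers held 0.000738 to 0.00128% in rods and 0.0376 to 0.0470% in retina. Cone and bipolar cell markers fell less than those of Müller glia, with cone markers at 0.0239 to 0.0394% in rods and 0.0792 to 0.0954% in retina. Bipolar cell markers were at 0.0209 to 0.0325% and 0.0840 to 0.0916%. Mitochondrially encoded genes held 0.0467 to 0.0881% in rods and 5.52 to 9.88% in retina. Lens markers, which a retina should lack, ranged from 0.000564 to 3.61% among the retina libraries, and their part in any result was not tested. For Ptpn11, Het rods had values of 2903, 2799 and 2808 and KO rods 2024, 2420 and 2273, and the log2 fold change of -0.26 did not pass the test (limma, adjusted p = 0.064). Its gene-level value also counts transcripts of the recombined allele. No source says that the 3 libraries of a group came from separate mice, so p-values measure only the spread between these libraries.

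The 89 genes together held a larger share of the RNA in retina than in rods, and 3 libraries stood apart. Their share was 1.33, 1.71 and 1.40% of the total in the Het retina libraries and 1.41, 1.38 and 1.97% in the KO retina libraries. In the rod libraries it was 0.955, 1.22 and 1.23% for Het and 1.23, 1.31 and 1.23% for KO. Every rod library was below every retina library in this share. Within the retina, Het replicate 2 and KO replicate 3 were high, and within the rods Het replicate 1 was low. In bulk samples such as these, fewer cells of a type and less RNA per cell cannot be told apart.

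**Figure D1:**
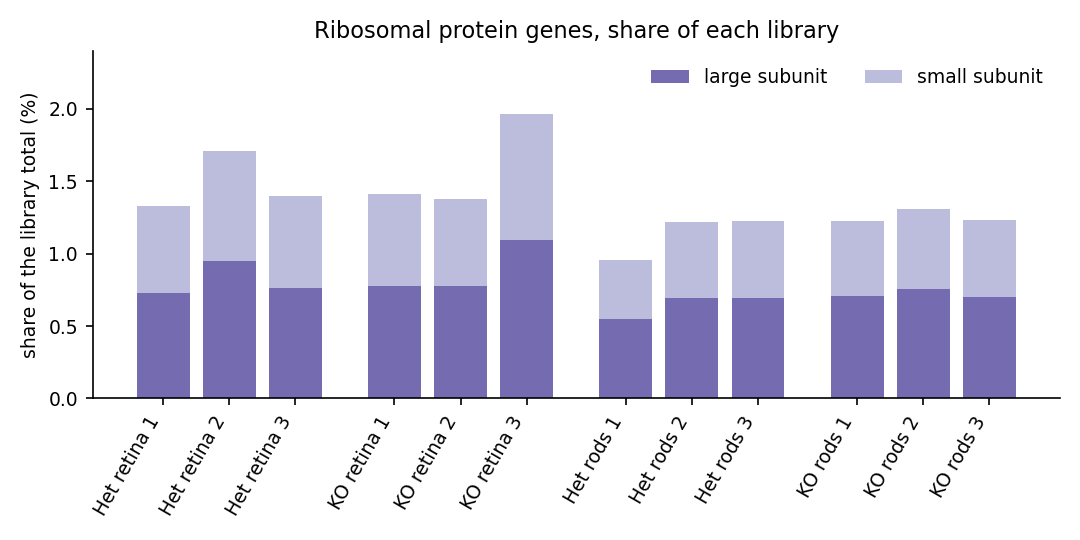
Share of each library's total value (y axis, %) held by ribosomal protein genes in the 12 libraries (x axis), with the large subunit below and the small subunit stacked on it. Rod libraries lie between 0.955 and 1.31% and retina libraries between 1.33 and 1.97%, with both subunits moving together.

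Levels between genes were compared only per kilobase of transcript, as values brought to 1 scale over the 12 libraries (TMM) and divided by transcript length. The length was that of the shortest consensus coding (CCDS) transcript. Where a gene had none, its longest protein-coding transcript was used, or else its longest transcript. Rps24 had the highest level in all 4 groups, at 15990 ± 1886 per kilobase in Het rods and 15110 ± 2390 in Het retina (SD, n = 3). In Het rods it was followed by Rpl7 at 12290 ± 856 and Rpl9 at 12260 ± 1404, which did not differ beyond their spread, and then by Rpl4 at 9500 ± 1209. In Het retina the next were Rpl9 at 7916 ± 126, Rpl26 at 7739 ± 1223 and Rpl7 at 7424 ± 1252, which lay within each other's spread. KO rods and KO retina also had Rps24, Rpl7 and Rpl9 among the top 4.

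Several genes stood near the low end. Rpl24 was at 69.8 ± 22.8 per kilobase in Het rods and Rpl13a at 140 ± 31, although every ribosome carries the 2 proteins. For Rps10, a small subunit protein near the mRNA entry channel, the deposited values of its 4 named pseudogene rows summed to 303 to 721 in every library and made up 96.6% of the gene and pseudogene values together. A member like Rps10 can share reads with near-identical copies, and its value is uncertain. Rpl24 had no named pseudogene row in the table, and the 1 row of Rpl13a made up 0.0469%. Only rows named after the member with -ps were counted. Copies under other symbols were not searched, so reads shared with such copies were not excluded for these 2 genes.

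Several members are paralogues, and in each pair 1 gene held most of the signal. The muscle paralogue Rpl3l and the testis paralogues Rpl10l and Rpl39l were at or near 0, with Rpl10l and Rps12l1 listed at 0 in all 12 libraries. Rpl3 itself stood at 5645 ± 478 per kilobase in Het rods, against 0.370 ± 0.642 for Rpl3l. Rps27 stood at 8641 ± 2531 and Rps27l, a p53 target, at 446 ± 24. The X-linked Rps4x was at 7249 ± 812 and Rps4l at 114 ± 53. Rpl7l1 reached 780 ± 29 against the 12290 of Rpl7, and Rpl22l1 reached 1697 ± 80 against 4789 ± 267 for Rpl22, the closest of these pairs. Rpl36a stood at 2011 ± 185.

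Rpl22 itself was the member whose mRNA the design touches, since its last exon is exchanged in rods. For Rpl22 (ENSMUSG00000028936), the Het retina libraries had scaled values of 1430, 1459 and 1635 and the KO retina libraries 1433, 1450 and 1581. Het rods had 2125, 2356 and 2329 and KO rods 1885, 1825 and 1874. All rod libraries were above all retina libraries, and all KO rod libraries were below all Het rod libraries. The log2 fold change was 0.42 (standard error 0.11, adjusted p = 0.011) in Het rods against Het retina and 0.30 (standard error 0.10, adjusted p = 0.028) in KO rods against KO retina, under the 0.5 that a call required. In library totals alone, these differences were 0.01 and -0.23. Between genotypes it was -0.20 in rods (standard error 0.08, adjusted p = 0.090), and 0.00 once each library's trend with GC content was removed. A gene-level value cannot separate the tagged from the untagged transcript. Each p here and below comes from limma with Benjamini-Hochberg adjustment over all genes tested, and a gene was called higher or lower at an adjusted p under 0.05 with a log2 fold change over 0.5 in size. Fold changes use the scaling of the comparison's own 6 libraries.

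The first question was how rod polysomes differ from the whole retina. In Het mice, most ribosomal protein mRNAs differed little between the 2 fractions. Of 83 members other than Rpl22 that passed the filter on low values, 3 were higher in rods (3.61%; 21.6% of all 16110 genes tested) and 3 were lower (3.61%; 36.8% of all genes). Their median log2 fold change was -0.14, with -0.11 for all genes, and it was -0.13 for the small and -0.17 for the large subunit. In all, 5 members lay entirely above the retina libraries and 5 entirely below (28.6% and 40.0% of all genes). The replicate numbers paired Het rods and Het retina, and with the replicate as a block 3 members were higher and 7 lower (23.0% and 38.2% of all genes), the added 4 being Rpl37, Rplp0, Rps12 and Rps21. Scaled by library totals alone, which moved the median of all genes to -0.51, 0 members were higher and 26 lower (7.25% and 45.9% of all genes).

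The members higher in Het rods were all of the large subunit. Rpl7, with scaled values of 8042, 7568 and 10294 in Het retina against 13246, 14392 and 15230 in Het rods, rose by 0.57 in log2 (standard error 0.14, adjusted p = 0.0062). Its paralogue Rpl7l1 had values of 624, 676 and 583 in retina against 1057, 1027 and 982 in rods. Both were clear of overlap. The change of Rpl7l1 was 0.54 (standard error 0.12, adjusted p = 0.0043). Rpl10a, a protein of the L1 stalk where spent tRNA leaves, changed by 0.53 (standard error 0.18, adjusted p = 0.029). With the GC trend of each library removed, Rpl10a kept its call and Rpl7 and Rpl7l1 did not, at 0.32 and 0.48. Without Het rods replicate 1, 5 members were higher, without Het retina replicate 2 there was 1, and without Het retina replicate 1, 0 were higher and 5 lower. Without Het retina replicate 3, 8 were lower. Over the 6 fits with a library left out, 15.5 to 18.9% of all genes were higher and 36.4 to 39.6% lower.

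Rpl10, which joins the large subunit late in its maturation beside the peptidyl transferase centre, was lower in rods in both genotypes. Het retina had scaled values of 2130, 3017 and 3119, and Het rods had 1793, 1998 and 1972. KO retina had 2541, 2906 and 4355, and KO rods had 2009, 1929 and 1953. The rod libraries formed a narrow band below all retina libraries. The log2 fold change was -0.67 (standard error 0.17, adjusted p = 0.0074) in Het and -0.72 (standard error 0.19, adjusted p = 0.0084) in KO, and it kept its call when any 1 library was left out of either comparison. Rpl12, a protein at the base of the stalk, was at -0.52 in Het (adjusted p = 0.036) and -0.36 in KO (adjusted p = 0.13). Rps10 was at -2.94 in Het and -2.48 in KO, from scaled values of 13 to 31 in retina and 0 to 6 in rods. With the named pseudogenes added to each gene, the change of Rps10 was -0.18 in Het and 0.11 in KO and neither was called.

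In KO mice, 7 of 83 members were higher in rods (8.43%; 25.8% of all 16121 genes tested) and 2 were lower (2.41%; 36.5%). The median was 0.17, against -0.02 for all genes, with 0.16 for the small and 0.21 for the large subunit. Rod and retina libraries were apart in 21 members, 10 above and 11 below (32.8% and 39.4% of all genes). The higher members were Rpl10a (0.66), Rpl7l1 (0.61), Rpl8 (1.06), Rpl19 (0.77), Rpl27 (0.76), Rps3 (0.52) and Rps4l (1.85), and the lower ones Rpl10 and Rps10. Rpl8, Rpl19, Rpl27 and Rps3 were called in 1 of the 6 fits that left a library out. KO retina replicate 3, the library with the largest ribosomal protein share, decided these counts, with 25 members higher (30.1%) and 3 lower (3.61%) without it, against 19.4 and 41.2% of all genes. Without KO retina replicate 1 or 2, 0 were higher and 7 or 6 lower, and without KO rods replicate 1, 2 or 3, the higher ones numbered 2, 3 and 3. Without KO retina replicate 1, 2671 of all 16646 genes were higher, and in the other 4 of these fits 17.7 to 22.8% were, with 36.0 to 39.3% lower over the 5. By library totals alone 0 were higher and 24 lower (7.1% and 48.7% of all genes), and the change of Rps3 turned to -0.02.

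**Figure D2:**
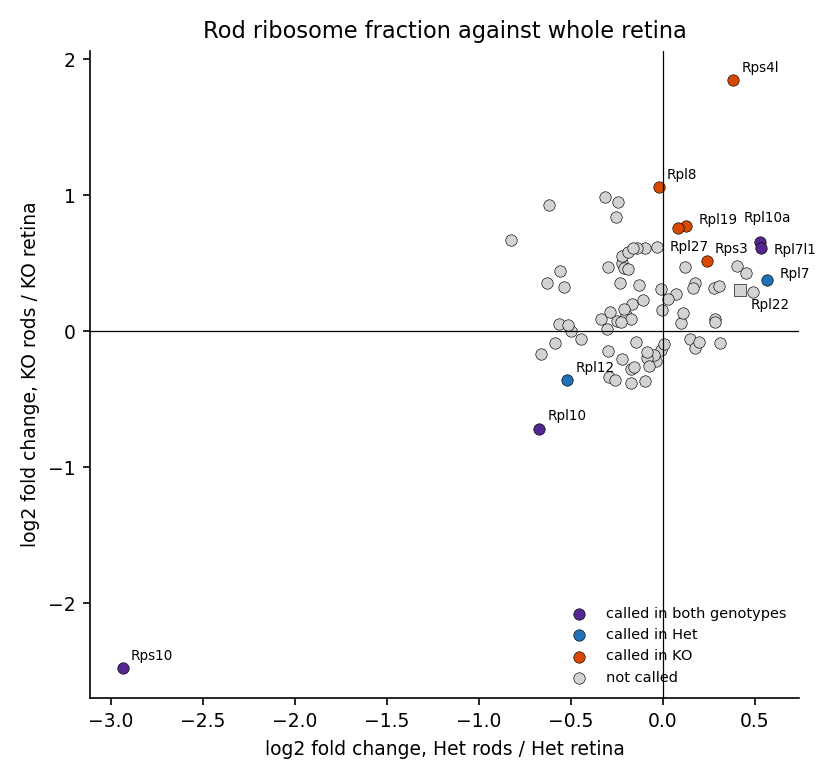
Log2 fold change of each gene past the filter in Het rods against Het retina (x axis) and in KO rods against KO retina (y axis), coloured by call, with Rpl22 as a square. Rpl10 and Rps10 lie low and Rpl10a and Rpl7l1 high in both genotypes, and most other genes lie within 0.5 of 0 on the x axis.

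The stalk proteins, which recruit the elongation factors, varied widely among the retina libraries. For Rplp0, Het retina had scaled values of 925, 2448 and 1268, KO retina 707, 656 and 2500, and Het rods 850, 1110 and 1274. For Rplp1, Het retina had 454, 1553 and 277 and KO retina 587, 401 and 2264. Het replicate 2 and KO replicate 3 were the high libraries in both genes. As scaled, none of the 3 stalk genes was called between fractions, with log2 fold changes of -0.59, -0.82 and -0.19 for Rplp0, Rplp1 and Rplp2 in Het and -0.08, 0.67 and 0.58 in KO. The adjusted p of Rplp0 in Het was 0.16, and with the replicate number as a block, which pairs these libraries, it was called lower (adjusted p = 0.044). It was also called lower without Het retina replicate 1 and by library totals alone. In KO, Rplp2 was called higher without KO retina replicate 3.

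Of the genes that build ribosomes, many were higher in rod polysomes. From a list of 40 assembly factors, Het rods were higher in 22 (55.0%) and lower in 0, with a median of 0.60, and KO rods were higher in 31 (77.5%) and lower in 0, with a median of 0.81, where 21.6 and 25.8% of all genes were higher. By library totals alone, 10 were higher and 1 lower in each genotype (25.0 and 2.5%), with medians of 0.19 and 0.28, against 7.25 and 7.1% of all genes higher. Ncl (nucleolin) changed by 1.05 and 0.90 as scaled by TMM. From a list of 16 other mRNAs with a known TOP, Het rods were higher in 6 (37.5%) and lower in 0 (median 0.46), and KO rods were higher in 6 (37.5%) and lower in 1 (median 0.47). By library totals alone, 1 was higher in each genotype (6.25%), with 1 lower in Het and 3 in KO, and the medians were 0.05 and -0.07. Eef1a1, which brings aminoacyl-tRNA to the ribosome, was at 0.06 and -0.01. Of the ribosome components outside the name rule, 3 of 4 passed the filter, 0 were called in Het, and Rack1 (0.55) and Fau (0.88) were higher in KO, while by library totals 0 were called in either genotype. The difference between the lists was not tested.

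The second question was what loss of Shp2 in rods did to rod polysomes. In KO rods a minority of the ribosomal protein mRNAs were called higher and 0 were called lower. Rps10 was too low to test. Of 82 members tested, 23 were higher in KO rods (28.0%; 11.2% of all 13055 genes) and 0 were lower (1.91% of all genes), with 9 of the small and 14 of the large subunit among the higher ones. The median log2 fold change was 0.26, against -0.01 for all genes, and it was 0.25 for the small and 0.29 for the large subunit. The KO libraries lay entirely above the Het libraries in 45 members and entirely below in 3 (23.7% and 20.4% of all genes). At an unadjusted p under 0.05 there were 47 members, 43 higher and 4 lower, and 38.3% of all genes, 21.9% higher and 16.4% lower.

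The calls rested on few libraries. Without KO rods replicate 1 or replicate 2, 6 members were higher in either case (7.32%), against 8.62 and 6.56% of all genes, so the members' share was then near that of all genes. Without Het rods replicate 1, the library with the lowest ribosomal protein share, 16 were higher and 1 lower (5.91 and 0.741% of all genes), and without Het rods replicate 3, 12 were higher (8.83%). Without KO rods replicate 3, 17 were higher and 1 lower (11.9 and 2.31%). A single fit to all 12 libraries, whose spread includes that of the retina, called 0 members and 0 genes of any kind. With no filter on low values, 9 of 86 were called higher (10.5%; 5.93% of all genes). Rpl18, Rpl23a and Rps9 were called whichever library was left out.

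Rpl23a (ENSMUSG00000058546), a protein at the exit of the peptide tunnel, had the smallest adjusted p of the higher members. Het rods had scaled values of 199, 348 and 268 and KO rods 725, 759 and 605, and the lowest KO library was above the highest Het library. It rose by 1.47 in log2 (standard error 0.20, adjusted p = 0.0034), a 2.76-fold difference. It has 14 named pseudogenes in the table, whose values made up 57.7% of the gene and pseudogene values together. With the pseudogenes added to the gene the change was 0.59 (adjusted p = 0.0087), still called. Rpl18 went from 488, 788 and 722 in Het rods to 1511, 1930 and 1335 in KO rods, a change of 1.35 (standard error 0.24, adjusted p = 0.012). For Rps9, of the mRNA entry channel, Het rods had 1105, 1740 and 1572 and KO rods 2609, 2995 and 2528, a change of 0.99 (standard error 0.18, adjusted p = 0.010).

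Rpl36 (ENSMUSG00000057863) had the greatest fold change among the higher members. Het rods had scaled values of 52, 109 and 76 and KO rods 238, 605 and 240, so that KO replicate 2 stood above the other KO libraries. The change was 2.16 (standard error 0.50, adjusted p = 0.032), and it was called in 3 of the 6 fits that left a library out. In the small subunit the highest were Rps4l (1.49, adjusted p = 0.085), which did not pass, Rps15 (1.38, adjusted p = 0.043) and Rps29 (1.30, adjusted p = 0.048). Rps29 was called in none (0) of the 6 fits with a library left out. In the large subunit, Rplp1 at 1.91 (adjusted p = 0.065) and Rpl29 at 1.59 (adjusted p = 0.095) did not pass, with KO replicate 2 again the high library at 2120 for Rplp1 against 1184 and 893.

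Of the stalk genes, none (0) was called. Rplp1 had values of 228, 506 and 433 in Het rods, below all KO values. For Rplp2, Het rods had 224, 458 and 392 and KO rods 685, 1162 and 646, with a log2 fold change of 1.31 (adjusted p = 0.075). Rplp0 had values of 998, 1225 and 833 in KO rods, which overlapped the Het values, and a change of 0.01 with a 95% interval from -0.50 to 0.51. Rpsa, the laminin receptor protein of the small subunit, had a change of 0.50 (adjusted p = 0.086).

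Rpl37 was the reference gene to which the study normalised its RT-PCR of TRAP fractions. That RT-PCR compared cell types, while the study's RT-PCR of KO mice was normalised to actin. Here Het rods had scaled values of 539, 840 and 794 and KO rods 1066, 1195 and 962, without overlap. It rose by 0.67 in log2 (standard error 0.18, adjusted p = 0.031), a 1.60-fold difference, called in 3 of the 6 fits with a library left out. With the GC trend of each library removed it was not called. In the retina its values ran from 598 to 1940, with Het replicate 2 and KO replicate 3 the high libraries, and the genotypes differed by 0.10 (adjusted p = 1).

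**Figure D3:**
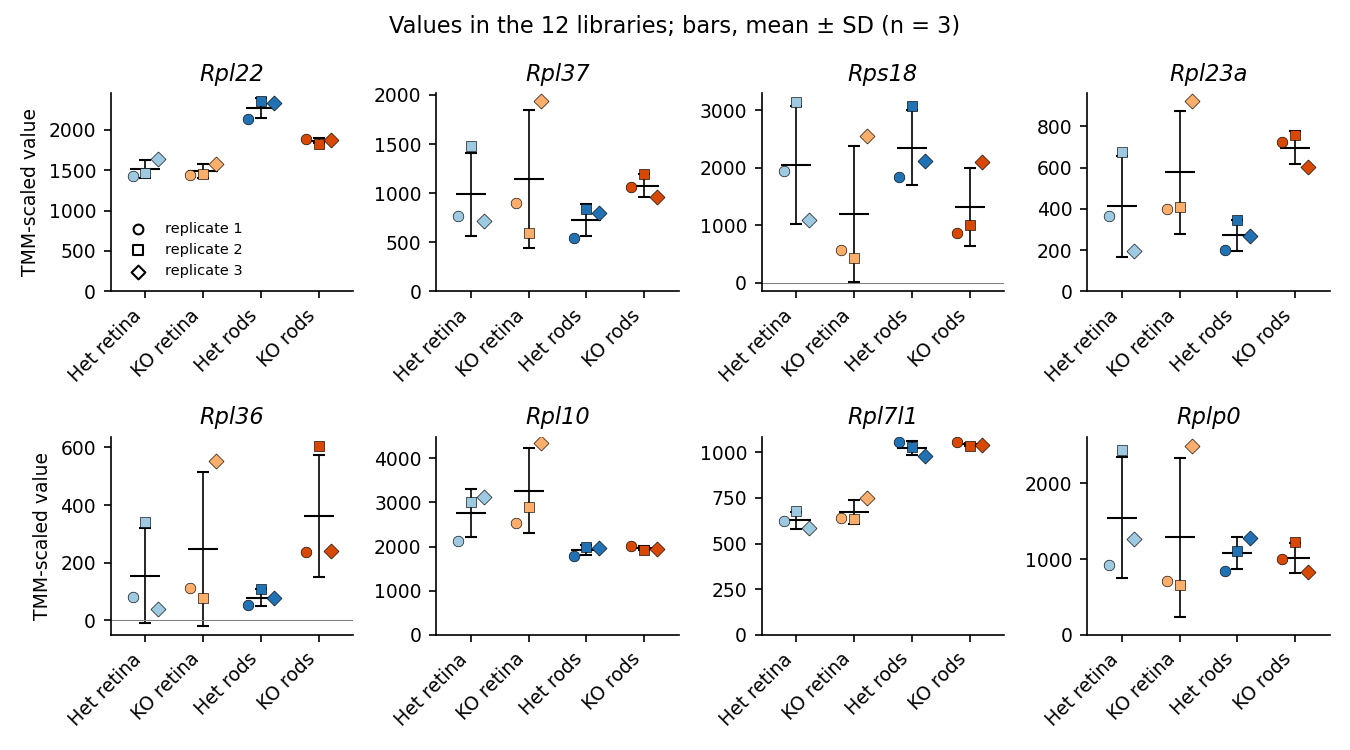
Scaled values (y axis, TMM over the 12 libraries) of 8 genes in the 4 groups (x axis), with a symbol for each replicate number and bars for the mean ± SD (n = 3). Rpl23a and Rpl37 are higher in KO rods than in Het rods, Rpl7l1 is higher and Rpl10 lower in rods, and Rps18 is low in KO replicates 1 and 2 of both fractions.

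Members at the low end of the comparison mostly had small changes. Rpl22l1, the paralogue of Rpl22, stood at 900, 845 and 928 in Het rods against 643, 632 and 696 in KO rods, with no overlap. Its log2 fold change was -0.35 (standard error 0.09, adjusted p = 0.018), under the size a call required. Rpl39, of the exit tunnel, was at -0.33 (standard error 0.08, adjusted p = 0.014), Rpl5, which carries 5S rRNA into the large subunit, at -0.20 (adjusted p = 0.070), Rps27 at -0.36 (adjusted p = 0.24) and Rps4x at -0.22 (adjusted p = 0.10). The paralogues Rps27l (-0.15), Rpl36a (-0.13) and Rpl7l1 (0.12) were not called.

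Rps18 (ENSMUSG00000008668), a protein of the head of the small subunit encoded on chromosome 17, had the lowest fold change in both fractions and split the KO libraries. Het rods had scaled values of 1841, 3079 and 2119 and KO rods 863, 1002 and 2102. Het retina had 1937, 3132 and 1084 and KO retina 576, 439 and 2551. KO replicates 1 and 2 were below every Het library in each fraction, while KO replicate 3 was within the Het range in each. The log2 fold change was -0.82 (standard error 0.42, adjusted p = 0.23) in rods and -1.13 (standard error 0.67, adjusted p = 1) in retina, so neither passed. The deposited values of its 7 named pseudogenes summed to 54, 97 and 182 for Het rods against 414, 660 and 284 for KO rods, and to 82, 115 and 131 for Het retina against 376, 222 and 485 for KO retina. In both fractions all KO sums were above all Het sums. With all 7 pseudogenes added to Rps18, the changes were -0.35 in rods and -0.75 in retina.

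**Figure D4:**
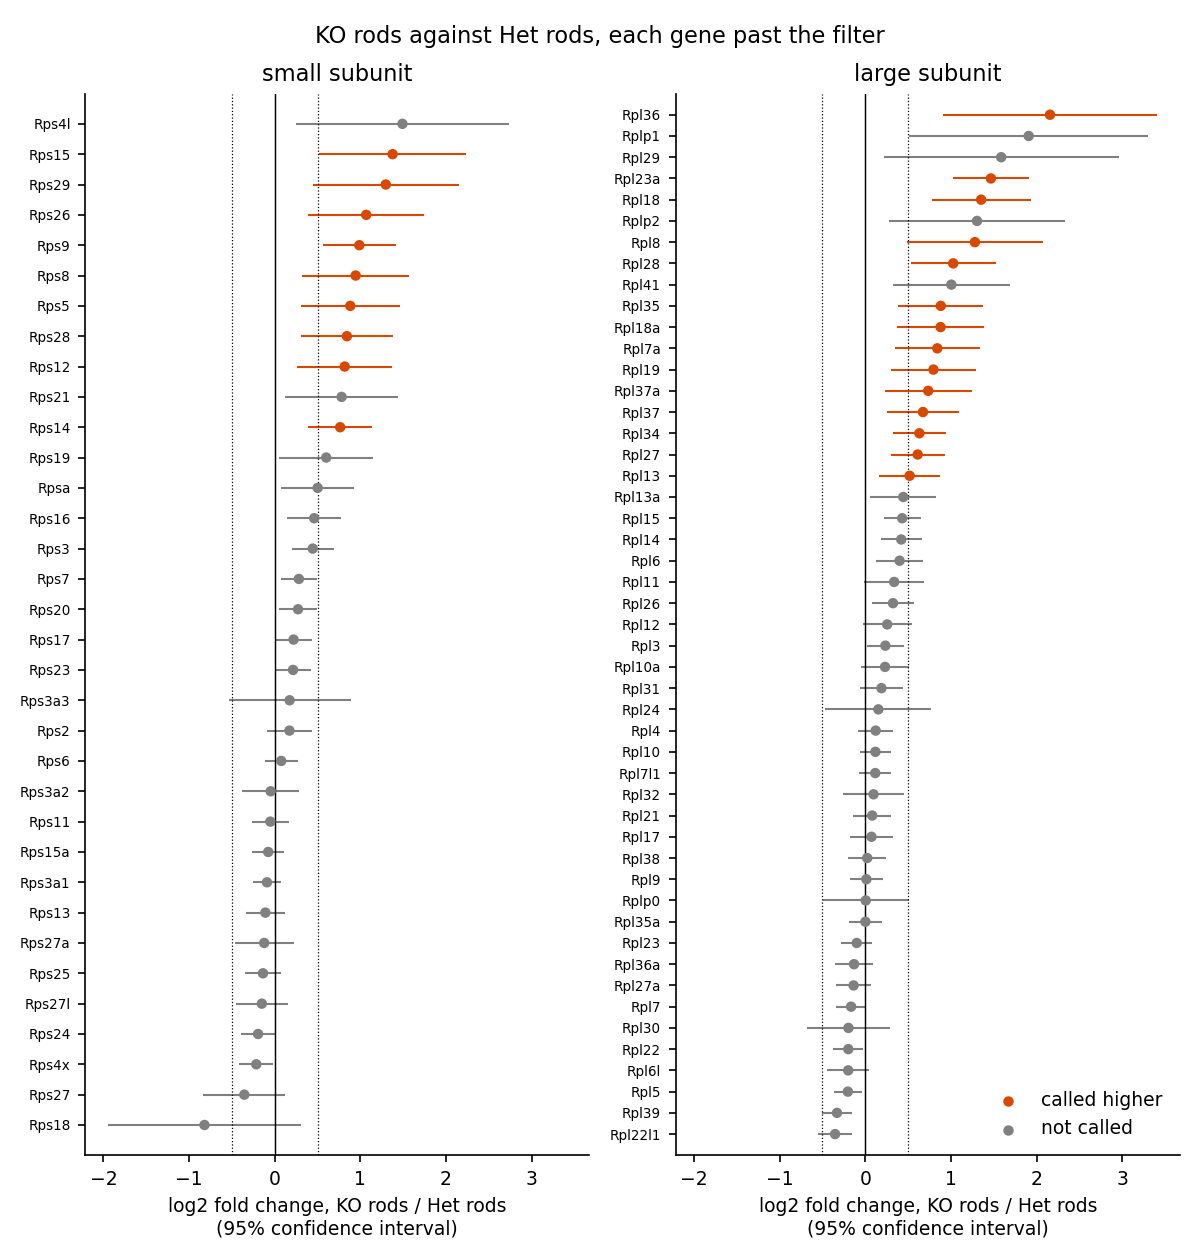
Log2 fold change in KO rods against Het rods (x axis) of each gene past the filter, Rpl22 included, by subunit (y axis, ordered by change), with 95% confidence intervals, dotted lines at 0.5 in either direction and called genes in orange. The 23 called genes lie between 0.52 and 2.16, and Rplp1, Rpl29, Rplp2 and Rps4l have large changes with wide intervals.

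GC content of the transcript moved with the change. Members were put into 3 classes of GC content. In the lowest class (39.0 to 49.5%), the median log2 fold change in KO rods was -0.08 and 4 of 28 were called. In the middle class (50.0 to 53.5%) it was 0.27 with 6 of 26 called, and in the highest (53.6 to 60.8%) it was 0.88 with 13 of 28 called. The share of all genes called in each class was not computed, so these counts cannot be set against genes of like GC content. Spearman's correlation of the change with GC content was 0.64 over the 82 members, which share their libraries, and 0.70 over all genes. It was -0.10 with transcript length. Each library's own trend, taken as the change from the tenth of all genes with the lowest to the tenth with the highest GC content, was -0.81, -0.23 and -0.41 log2 for Het rods against 0.42, 0.76 and 0.27 for KO rods. The genotypes do not overlap in this trend, so genotype and GC trend cannot be told apart.

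With each library's GC trend removed, 7 of 82 members were higher (8.54%; 2.22% of 12907 genes) and 0 lower (1.02%). These were Rpl18, Rpl23a, Rpl27, Rpl34, Rps14, Rps3 and Rps9, of which 6 were among the 23. The median of the members was then 0.27, against 0.07 for all genes, and the correlation with GC content was 0.23. The members' median thus stayed while most of the calls did not. Its excess over the median of all genes was 0.274 as scaled and 0.193 with the GC trend removed. When the replicate number was also a block, 23 members were called, 17 of them shared with the fit as scaled (2.57% of all genes). The numbers were not shown to pair these groups.

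**Figure D5:**
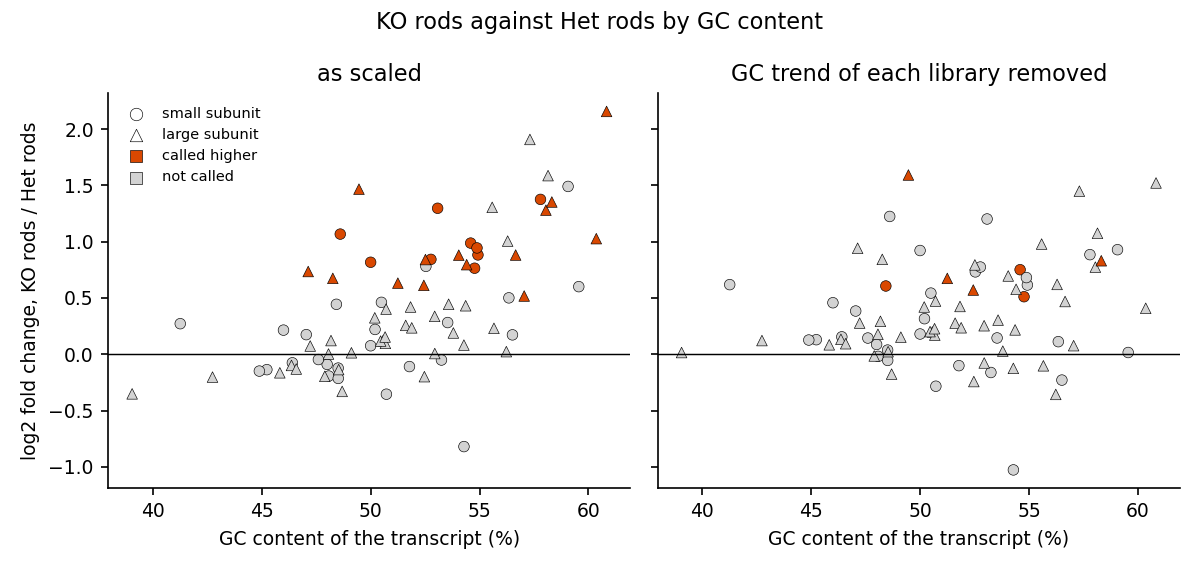
Log2 fold change in KO rods against Het rods (y axis) against GC content of the transcript (x axis, %) for the 82 genes tested, before (left) and after (right) removing the GC trend of each library, with circles for the small and triangles for the large subunit. Called genes, in orange, number 23 on the left and 7 on the right, and the slope with GC content is shallower on the right.

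Lists of other translation genes had medians near 0 in KO rods. From the 16 other TOP mRNAs, KO rods were higher in 2 (12.5%, where 11.2% of all genes were higher) and lower in 0, and the median was -0.04. They were Eef2, the translocation factor, at 1.01 (standard error 0.20, adjusted p = 0.016), and Eef1d at 0.91, which falls outside the naming rule and was chosen after its values were seen. Eef1a1 was at -0.03 and Tpt1 at -0.04. From the 40 assembly factors, 8 were higher, a larger share than the 11.2% of all genes, and 0 were lower. Their median was 0.07, and Ncl was at -0.25 (adjusted p = 0.054). Fau, whose product is cut into a small subunit protein, was higher at 0.93 (adjusted p = 0.017), while Rack1, the signalling scaffold on the small subunit, was at 0.48 (adjusted p = 0.022), just under the size a call required. With the GC trend removed, 2 TOP mRNAs (12.5%), 1 assembly factor (2.5%) and 1 other component were called higher, against 2.22% of all genes. Members with and without a run at the annotated start had medians of 0.25 (12 genes) and 0.27 (46 genes).

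Between KO retina and Het retina 0 of 83 members were called in either direction, as were 0 of all 16863 genes (0.0%), by limma. At an unadjusted p under 0.05 there were 0 members and 140 genes. The study itself reported Slc29a1, Rps18-ps5 and Gm49909 as differing between the retinas of the genotypes, and here they were not called. The submitters' notes name DESeq2 and edgeR, so the study's test may differ from the limma fit. For Rps18-ps5, the deposited values were 37, 43 and 71 in Het retina and 258, 160 and 318 in KO retina, without overlap. The median of the members was 0.11, against -0.00 for all genes. The 2 genotypes were entirely apart in 2 members, Rps27a and Rps10, both with KO above Het (1.53% of all genes, and 1.97% with KO below). Rps27a, made as a fusion with ubiquitin, went from 2829, 3338 and 3763 in Het retina to 4054, 3857 and 4557 in KO retina, a log2 difference of 0.32 (standard error 0.16, adjusted p = 1). The deposited values of the 3 named pseudogenes of Rps27a made up 21.2% of the gene and pseudogene values together. They summed to 1319, 893 and 1704 for Het retina against 496, 1364 and 444 for KO retina, so reads shared with copies limit this separation. The 3 highest changes in the large subunit were Rpl36 (0.66), Rplp2 (0.58) and Rpl23a (0.52), and the lowest were Rplp0 (-0.45), Rpl22l1 (-0.10) and Rpl27 (-0.02).

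Spread within a genotype exceeded that difference in the retina. Relative to each gene's mean over the 6 retina libraries, the median member was at -0.25, 0.17 and -0.16 log2 for Het against -0.11, -0.14 and 0.46 for KO. The GC trend of the same libraries was -0.24, 0.85 and -0.82 for Het against 0.01, -0.62 and 0.87 for KO. Het replicate 2 and KO replicate 3 were thus highest in both measures. Among the rod libraries the median member was at -0.42, -0.04 and -0.03 for Het against 0.14, 0.24 and 0.06 for KO.

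An interaction term tested whether the KO effect differed between the fractions. For 82 members, 0 differed (0.0% of 12921 genes), by limma, and at an unadjusted p under 0.05 there were 1 member and 477 genes. That member was Rps27a, at -0.54 (standard error 0.21, adjusted p = 0.72), with changes of -0.12 in rods and 0.32 in retina. The median difference of the members was 0.15, against -0.10 for all genes, and 0.05 with the GC trend removed. For no member, then, was the KO effect shown to differ between rods and retina.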

How the data were processed

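The 12 libraries were poly(A) RNA of whole retina and of HA-purified rod polysomes, made from 100 ng RNA with SMART-Seq V4. The submitters' processing notes name CASAVA 1.8.2, HISAT2, DESeq2, edgeR and the build GRCm39. The deposited values are a normalised signal per gene, which the authors scaled to a common total in each fraction and rounded, so they are not raw counts, depth is unknown and no count test was run.

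Values were scaled by TMM factors computed on genes past the filter (at least 10 in at least 3 libraries of the comparison, sum at least 15) and tested as log2(value + 2) with limma 3.58.1 in R 4.3.3 (trend, robust; two-sided), each comparison on its own 6 libraries, with Benjamini-Hochberg adjustment. Fold changes are on that log2 scale and understate those of low genes. With 3 against 3 libraries an exact permutation test cannot go below 0.1, so none is given. GC content and length come from GENCODE for GRCm38, with 91.8% of all genes and all 89 members matched. A smooth GC trend (spline, 5 degrees of freedom) was subtracted per library where stated. Fits were tested on simulated data without GC trends or outlying libraries, so that test does not cover these features of the real libraries.

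The members and lists were chosen with earlier results of these data known. Named genes were Rpl22, Rpl37, the paralogues, the stalk genes and Rpsa, the 3 highest and lowest per subunit and comparison among members with a mean of at least 100, members with a call unlike most of their subunit, the highest and lowest levels, and up to 4 abundant genes of each other list. Same-numbered Het rod and Het retina libraries deviated together (correlations 0.25 to 0.47), so those numbers pair; the other comparisons had at least 1 correlation under 0.1. Alternatives were library totals, median-of-ratios factors, other pseudocounts (0.5 and 10), no filter, each library left out, a replicate block, GC removal, 1 fit to all 12 libraries, named pseudogenes added, and genes depleted in rods removed. There were 0 unmapped sample columns. Members too low to be tested in any comparison were Rpl32l, Rpl3l, Rpl39l, Rpl10l and Rps12l1.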

Additional observations from a re-analysis of the deposited data

How the results depend on the processing

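In Het rods against Het retina, the members higher numbered 0 by library totals, 1 with the GC trend removed and 6 in 1 fit to all 12 libraries, and 0 to 5 with a library left out. Those lower numbered 26 by library totals, 7 with the replicate block and 8 with the block and the GC trend removed, and 2 to 8 with a library left out. In KO rods against KO retina, the members higher numbered 0 by library totals, 11 with the GC trend removed and the replicate block, and 0 to 25 with a library left out. Those lower numbered 24 by library totals, 1 with the named pseudogenes added and 2 to 7 with a library left out. There the change of Rps3 turned to -0.017 by library totals and that of Rps10 to 0.107 with the pseudogenes added, where reads of its copies enter by construction. In KO rods against Het rods, the members higher numbered 9 with no filter, 7 with the GC trend removed and 0 in 1 fit to all 12 libraries, and 6 to 26 with a library left out, with 0 to 1 lower. The cause was not tested. The other alternatives stayed within 1.5 times the count as reported. In the retina and for the interaction, 0 members were called under every alternative run.

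The replicate block moved the count higher in KO rods to 27, added 4 members lower in Het rods against Het retina, and changed no other call. The numbers were not shown to pair the KO fractions (same-number correlations -0.01 to 0.33), the rods (0.03 to 0.18) or the retinas (-0.59 to 0.40). For the KO fractions these correlations cannot exclude pairing. Sag followed the number there, with deposited values of 114436, 102637 and 61358 in KO retina and 345207, 340293 and 191500 in KO rods. Removing genes depleted in rods left 24 of 80 members higher in KO rods (12.1% of all genes). The main limits are 3 libraries a group, values scaled before deposit, reads shared with pseudogenes, and GC trends that follow genotype in rods.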
